A study of Homo sapiens with 26 samples.

Results

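A set of 10 transcription factor genes that act in mesenchymal cells, TWIST1, TWIST2, PRRX1, SNAI2, RUNX1, RUNX2, TEAD1, ZEB1, ZEB2 and TCF21, was examined for binding of liver-type transcription factors placed into fibroblasts. BJ cells are an established human fibroblast line from foreskin, and they expressed a HALO-tagged protein ectopically for 48 hours. Binding was then mapped by chromatin immunoprecipitation and sequencing (ChIP-seq), with the tag as the target of the antibody. The 5 proteins were FOXA1, 3 FOXA1 variants that the labels call FOXA1dbd, FOXA1nhaa and FOXA1rraa without describing the change, and HNF4A. The labels give 2 ChIP libraries and 2 inputs for each protein, but each protein has 1 full list of bound regions (peaks). No difference between lists therefore has a replicate error, no test was made, and how deeply the libraries were read is unknown. The 6 samples of HALO-tagged histone H2B were not analysed here.

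A gene's locus was taken as its record in the GENCODE annotation, from the first to the last annotated transcript, with 50 kb on either side. All 10 genes were found, and their loci covered 3450.9 kb, or 0.1115% of chromosomes 1 to 22, X and Y. Of the 399566 peaks in the 5 lists, 1031 overlapped one of these loci. They were 398 of 155652 FOXA1 peaks, 84 of 28831 FOXA1dbd peaks, 259 of 105591 FOXA1nhaa peaks, 182 of 71202 FOXA1rraa peaks and 108 of 38290 HNF4A peaks. The lists hold binding positions and no transcript levels, so whether the 10 genes were active in these cells could not be measured. Just inside the outer edge of the loci, 40 to 50 kb from the gene records, lay 11 FOXA1 peak centres, against 14 at 50 to 60 kb. The counts inside and outside that edge were 1 and 2 for FOXA1dbd, 14 and 6 for FOXA1nhaa, 8 and 7 for FOXA1rraa, and 1 and 2 for HNF4A.

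FOXA1 is a forkhead protein known as a pioneer factor, one that can bind its sites on DNA wrapped in nucleosomes, and it helps to establish liver and other endodermal tissues. HNF4A is a nuclear receptor that drives hepatocyte genes and is often bound near promoters. TWIST1, TWIST2 and TCF21 are basic helix-loop-helix proteins of embryonic mesenchyme, and PRRX1 is a homeodomain protein of limb and connective tissue mesenchyme. SNAI2, ZEB1 and ZEB2 are zinc-finger repressors that silence epithelial genes such as that of E-cadherin. RUNX1 and RUNX2 share a Runt DNA-binding domain and are best known for blood cell and bone formation, while TEAD1 is the DNA-binding partner of the Hippo pathway coactivators YAP1 and TAZ (gene WWTR1).

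The sequences at the middle of the highest-scoring FOXA1 peaks are shown for 3 genes. The score is the authors' value of a single peak and ranks peaks only within a list. In the 200 bp around the midpoint, the windows at TWIST1 (chr7:19100814-19101013) and RUNX1 (chr21:36319490-36319689) each held 1 forkhead core, TGTTTAC or TATTTAC on either strand. That at TCF21 (chr6:134166200-134166399) held none, although the whole peak of 862 bp held 1. FOXA1 peaks have no given summit, so the window need not lie at the bound site. Of the highest-scoring windows at the 10 genes, 3 held a core. Windows are from the plus strand of the GRCh37 (hg19) reference, written 5′ to 3′, with the forkhead core in capitals.
TWIST1 FOXA1 peak: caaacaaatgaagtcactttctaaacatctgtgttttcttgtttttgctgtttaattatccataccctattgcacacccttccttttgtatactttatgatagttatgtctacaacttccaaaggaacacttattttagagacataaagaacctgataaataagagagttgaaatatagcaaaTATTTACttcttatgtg
RUNX1 FOXA1 peak: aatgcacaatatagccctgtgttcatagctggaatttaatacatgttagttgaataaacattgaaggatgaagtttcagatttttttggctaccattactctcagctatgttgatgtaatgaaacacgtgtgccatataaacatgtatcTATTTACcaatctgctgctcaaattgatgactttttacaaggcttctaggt
TCF21 FOXA1 peak: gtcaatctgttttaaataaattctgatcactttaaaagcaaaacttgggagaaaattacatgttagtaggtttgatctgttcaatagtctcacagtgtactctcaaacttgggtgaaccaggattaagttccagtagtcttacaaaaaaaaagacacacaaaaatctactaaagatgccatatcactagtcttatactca
The TWIST1 peak had a score of 552 and lay 56.34 kb downstream of the canonical start, and it was also in all 3 variant lists. At RUNX1 the peak scored 553, lay 102 kb downstream and was shared with FOXA1nhaa and FOXA1rraa. TCF21 had its highest score, 225, at a peak at -43.95 kb from the canonical start (upstream) that was in all 3 variant lists.

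A further set showed sequences without a forkhead core. The highest-scoring RUNX1 FOXA1 peak shared by all 3 variants (window chr21:36723338-36723537, score 492) held the AP-1 motif TGAGTCA, the site of FOS and JUN dimers, here read from the other strand. At the other genes with a FOXA1 peak shared by all 3 variants, the window of the highest-scoring such peak held no AP-1 motif. Over all 40 FOXA1 peaks of that kind at the loci, 5 held the motif in the central 200 bp. HNF4A windows are centred on the summit. The strongest HNF4A peak at RUNX1 (window chr21:36675386-36675585, score 633) held the HNF4 core CAAAGTCCA, also on the other strand. The strongest HNF4A peaks at TWIST2 (window chr2:239754420-239754619, score 908) and PRRX1 (window chr1:170633724-170633923, score 601) held neither core. Over all HNF4A peaks at the loci, 2 of 108 held the HNF4 core (1.852%, Wilson 95% interval 0.5093% to 6.502%, counting error only), against 0.9924% of the list and 0.2532% of genome tiles of 200 bp. Capitals mark the AP-1 motif in the first sequence and the HNF4 core in the second.
RUNX1 FOXA1 peak shared by all variants: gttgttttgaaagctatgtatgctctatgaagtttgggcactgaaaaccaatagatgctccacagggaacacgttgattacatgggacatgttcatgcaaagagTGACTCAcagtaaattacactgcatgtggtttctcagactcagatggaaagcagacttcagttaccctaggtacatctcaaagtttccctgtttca
RUNX1 HNF4A peak: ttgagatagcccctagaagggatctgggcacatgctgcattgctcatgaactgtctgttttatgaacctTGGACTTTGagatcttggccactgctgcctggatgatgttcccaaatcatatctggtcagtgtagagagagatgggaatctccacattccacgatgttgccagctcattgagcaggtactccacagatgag
TWIST2 HNF4A peak: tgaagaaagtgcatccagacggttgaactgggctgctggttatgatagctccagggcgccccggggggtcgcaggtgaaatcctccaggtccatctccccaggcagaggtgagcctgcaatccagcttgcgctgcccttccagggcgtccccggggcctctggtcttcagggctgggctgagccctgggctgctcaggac
PRRX1 HNF4A peak: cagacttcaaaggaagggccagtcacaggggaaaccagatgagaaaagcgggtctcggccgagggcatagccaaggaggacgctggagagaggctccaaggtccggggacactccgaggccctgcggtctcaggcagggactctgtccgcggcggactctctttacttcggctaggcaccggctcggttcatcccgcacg
The FOXA1 windows of the first set were AT-rich, with a GC content of 30% at TWIST1, 34% at RUNX1 and 32.5% at TCF21. The HNF4A windows at TWIST2 and PRRX1 had 64.5% and 63.5%, and that at RUNX1 48%. The RUNX1 HNF4A peak lay in an intron within the gene record, but at -253.9 kb from the canonical start (upstream). The RUNX1 FOXA1 peak shared by all variants lay in the same way at -301.8 kb.

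FOXA1 peaks were dense at these genes. Pooled over the 10 loci, 11.53 FOXA1 peaks fell in 100 kb, against 5.028 over the genome, a ratio of 2.294. The ratio was 2.614 for FOXA1dbd (2.434 against 0.9313 peaks per 100 kb), 2.2 for FOXA1nhaa (7.505 against 3.411), 2.293 for FOXA1rraa (5.274 against 2.3) and 2.53 for HNF4A (3.13 against 1.237). The 5 ratios thus lay between 2.2 and 2.614, although the lists differed in size. RUNX1, whose GENCODE record spans 1216.9 kb, supplied 118 of the 398 FOXA1 peaks. With its canonical transcript of 261.5 kb as gene body, a choice made once the data had been seen, it held 44 FOXA1 peaks at 12.17 per 100 kb, against 8.961 with the record. Its densities then also rose to 9.129 for FOXA1nhaa (5.164 with the record), 7.745 for FOXA1rraa (4.253) and 6.086 for HNF4A (2.886).

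All 10 loci held a FOXA1 peak, as did 87.1% of the 20162 protein-coding loci built the same way. At least 1 FOXA1dbd peak was present at all 10 (background 59.6%), a FOXA1nhaa peak at all 10 (81.8%), a FOXA1rraa peak at all 10 (74.9%) and an HNF4A peak at 9 (83.5%). The members' loci were longer, with a median of 226.7 kb against 127.2 kb over coding loci. A longer locus has more room for a peak, and these presence counts were not matched for length. Density exceeded that of the list over the genome at all 10 loci for FOXA1 (background 43.2%), FOXA1nhaa (41.7%) and FOXA1rraa (41.1%), at 7 for FOXA1dbd (39.3%) and at 9 for HNF4A (66.6%). The FOXA1 density lay above the 75th percentile of coding loci at 8 of the 10, where 25% do by construction. By the same measure FOXA1dbd and FOXA1nhaa had 7 such loci each, FOXA1rraa had 9 and HNF4A had 1. Every member lay above the median coding locus for FOXA1, FOXA1nhaa and FOXA1rraa, 8 did for FOXA1dbd and 6 for HNF4A.

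The GC content of the loci moved with these densities. Across coding loci, Spearman's rho between locus GC and density was -0.5126 for FOXA1 and -0.3891, -0.542 and -0.4892 for the dbd, nhaa and rraa variants, but 0.601 for HNF4A, a description over genes that share sequence and libraries. The 10 loci had a median GC of 39.58%, against 44.27% over coding loci. Compared only with coding loci within 2 percentage points of their own GC, a comparison added after the data were seen, 8 of the 10 lay above the median for FOXA1 and 5 above the 75th percentile. For HNF4A the counts rose instead, to 9 above the median and 8 above the 75th percentile. Among loci of like GC the median member stood at the 75.73 percentile by FOXA1 density, at 85.17 by FOXA1dbd, at 75.3 and 69.89 by the nhaa and rraa variants, and at 81.82 by HNF4A. What part GC plays in the densities was not tested.

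**Figure D1:**
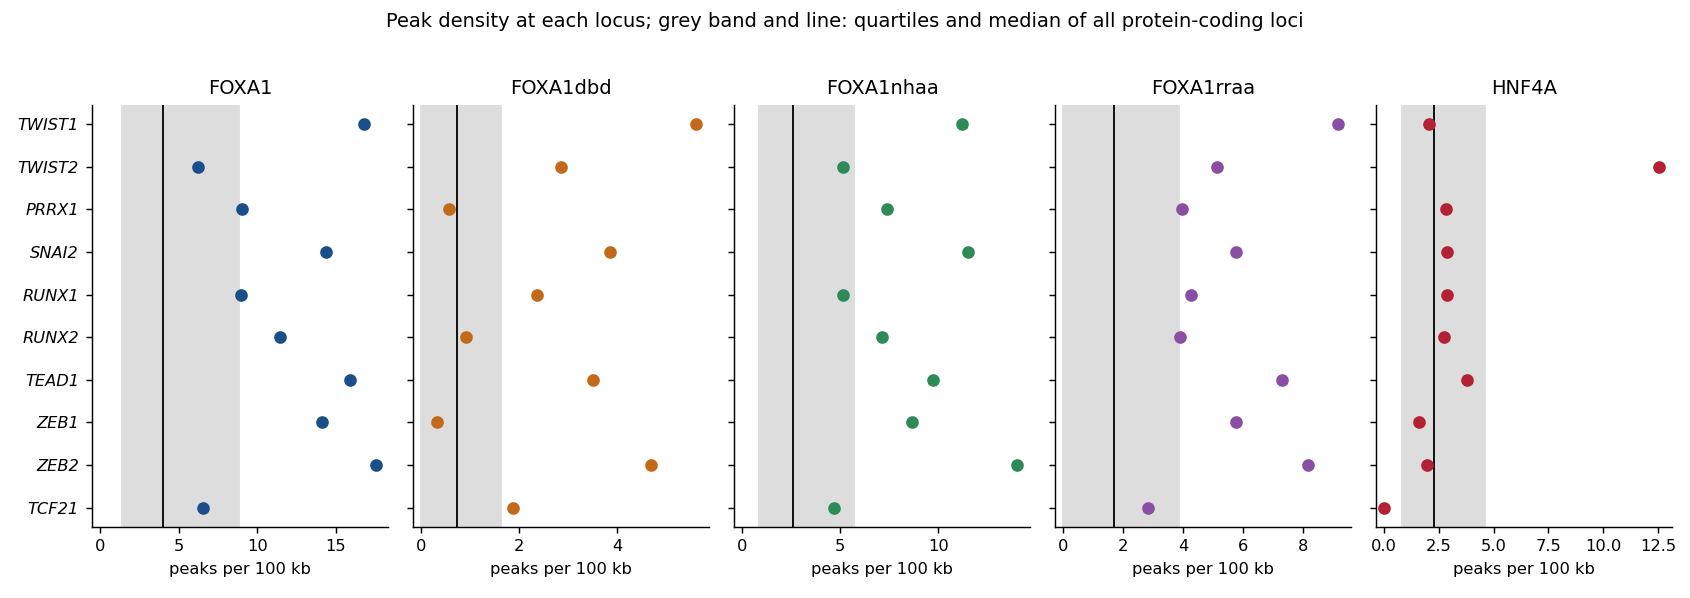
Peaks per 100 kb (horizontal axis) at the locus of each gene (rows), with 1 panel for each list. Points are single loci, the grey band spans the quartiles of all 20162 protein-coding loci and the line is their median. FOXA1 points run from 6.266 at TWIST2 to 17.53 at ZEB2, and in the HNF4A panel TWIST2 stands apart at 12.53.

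Among the basic helix-loop-helix genes, TWIST1 was dense in FOXA1 peaks and TWIST2 and TCF21 were less so. The TWIST1 locus held 33 FOXA1, 11 FOXA1dbd, 22 FOXA1nhaa, 18 FOXA1rraa and 4 HNF4A peaks. Its FOXA1 density of 16.78 peaks per 100 kb exceeded that of 94.62% of coding loci and 81.03% of those of like GC, and its FOXA1dbd density of 5.594 exceeded 99.08%, the highest percentile of any member in that list. Its FOXA1 peaks also had the highest median score of the 10 genes, 180 against 124 in the whole list, and 14 of the 33 were in the highest-scoring 20% of that list (score over 217). The long gene record and the neighbours FERD3L and HDAC9 belong to this window: with the short canonical transcript as body, TWIST1 held 18 FOXA1 peaks at 17.62 per 100 kb. Other coding genes also overlap the loci of RUNX1 (SETD4, FKSG68 and AP000688.1), RUNX2 (SUPT3H) and ZEB2 (GTDC1). Peaks in such neighbours were counted for the member.

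TWIST2 reversed the order of the proteins. It held 22 HNF4A peaks, 11 FOXA1, 9 FOXA1nhaa, 9 FOXA1rraa and 5 FOXA1dbd peaks, and was the sole member with more HNF4A than FOXA1 peaks. Its HNF4A density of 12.53 peaks per 100 kb was 10.13 times that of the genome and above 98.33% of coding loci, and above 99.27% of loci of like GC. TWIST2 was also the most GC-rich of the loci, at 47.28% against 36.77% to 42.27% in the others. Of its 22 HNF4A peaks, 8 lay in one stretch of 20 kb around the start, and the strongest was at -2.206 kb from the start with a fold enrichment of 24, as the authors' caller gave it. FOXA1 density there was 6.266 per 100 kb, above 63.7% of all coding loci and 81.81% of those of like GC.

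TCF21 held the fewest peaks. Its FOXA1 peaks numbered 7, or 6.576 per 100 kb, above 65.22% of coding loci but only 33.66% of those of like GC. None lay within the short gene record, and the nearest to an annotated TCF21 start was 11134 bp away. FOXA1dbd had 2 peaks there, FOXA1nhaa 5 and FOXA1rraa 3. No HNF4A peak overlapped the locus, the sole combination of gene and list without a peak.

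PRRX1, the homeodomain gene, held 16 FOXA1, 13 FOXA1nhaa, 7 FOXA1rraa, 5 HNF4A and 1 FOXA1dbd peak. FOXA1 density was 9.055 per 100 kb, above 75.94% of coding loci and 46.43% of those of like GC. The single FOXA1dbd peak fell at the highest-scoring FOXA1 peak of the locus (score 331), at -29.77 kb from the canonical start. Of the FOXA1nhaa peaks here, 8 of 13 overlapped no FOXA1 peak (61.54%, against 41.63% in the whole list).

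The zinc-finger repressor genes carried dense FOXA1 binding but divided over FOXA1dbd. SNAI2 held 15 FOXA1, 4 FOXA1dbd, 12 FOXA1nhaa, 6 FOXA1rraa and 3 HNF4A peaks, with a FOXA1 density of 14.4 per 100 kb (above 91% of coding loci and 84.3% of those of like GC). Of its FOXA1 peaks, 9 fell in one stretch of 20 kb whose middle lay 7.409 kb downstream of the canonical start. SNAI2 had 3 of the 15 in its short record, 9 in the downstream flank and 3 in the upstream flank. Its highest-scoring FOXA1 peak (score 428), 26.4 kb downstream of the start, was in no other list. ZEB1 held 44 FOXA1, 27 FOXA1nhaa, 18 FOXA1rraa, 5 HNF4A and only 1 FOXA1dbd peak. ZEB2 held 45 FOXA1, 36 FOXA1nhaa, 21 FOXA1rraa, 5 HNF4A and 12 FOXA1dbd peaks. FOXA1 density was 14.13 per 100 kb at ZEB1 and 17.53 at ZEB2, above 90.53% and 95.44% of coding loci. Among loci of like GC they stood above 70.43% and 86.59%. FOXA1dbd density was 0.3212 at ZEB1, above 41.23% of coding loci, and 4.675 at ZEB2, above 97.85%.

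RUNX1, RUNX2 and TEAD1 had the longest records. RUNX1 held 118 FOXA1, 31 FOXA1dbd, 68 FOXA1nhaa, 56 FOXA1rraa and 38 HNF4A peaks, and its FOXA1 density of 8.961 per 100 kb was above 75.62% of coding loci and 58.92% of those of like GC. RUNX2 held 50 FOXA1, 4 FOXA1dbd, 31 FOXA1nhaa, 17 FOXA1rraa and 12 HNF4A peaks, with 11.46 FOXA1 peaks per 100 kb (above 83.75%, and 64.94% of loci of like GC). Its FOXA1 peaks clustered around the start, with 10 in one stretch of 20 kb, the most of any member, and included the highest score of the 10 loci, 565, at 36.67 kb downstream. TEAD1 held 59 FOXA1, 13 FOXA1dbd, 36 FOXA1nhaa, 27 FOXA1rraa and 14 HNF4A peaks. At 15.93 per 100 kb its FOXA1 density was above 93.54% of coding loci and, among loci of like GC, above 93.67%, the highest such value of the 10 genes.

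**Figure D2:**
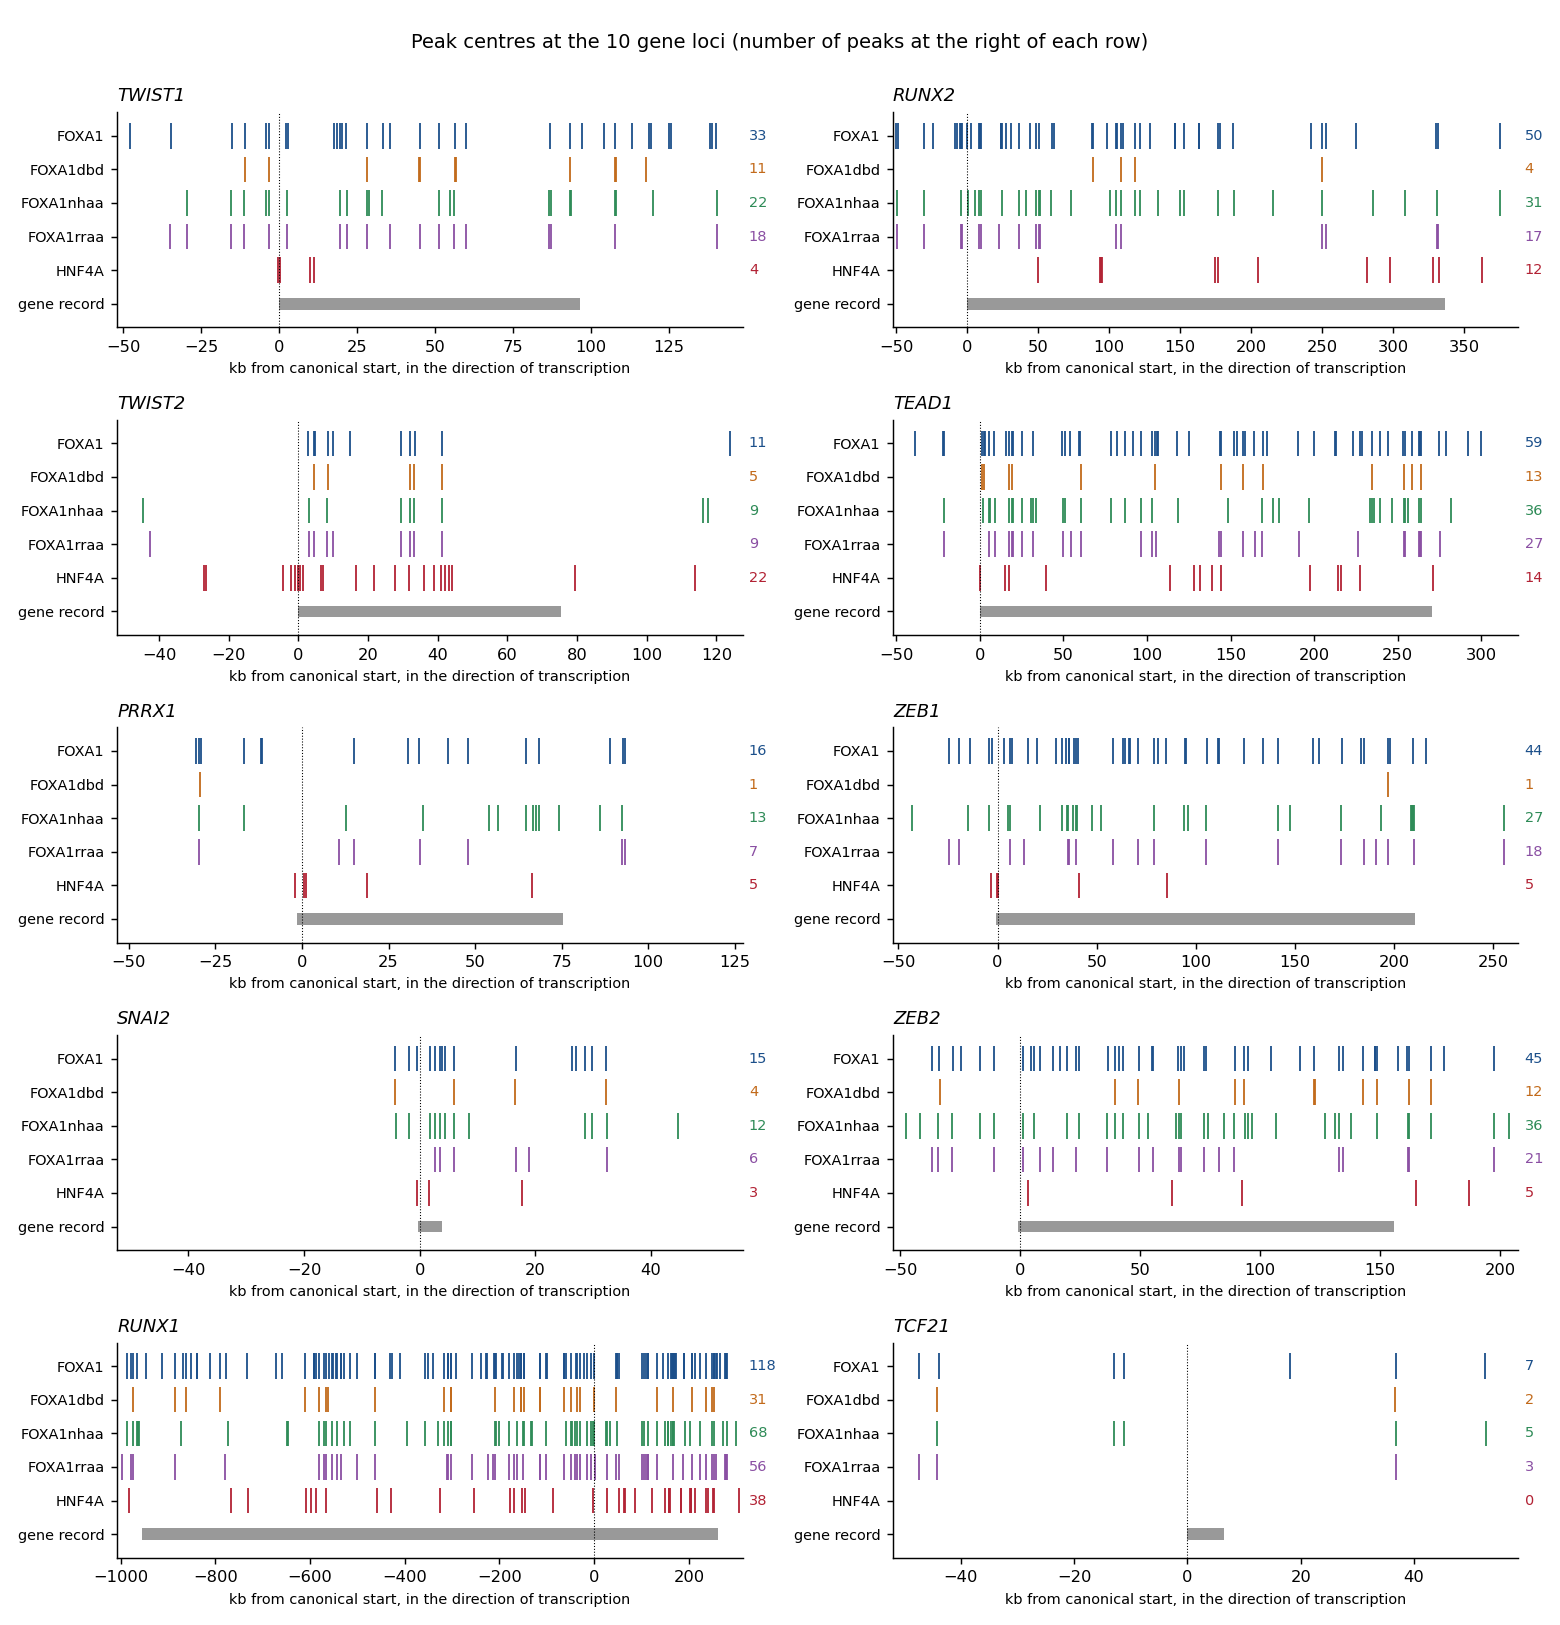
Position of each peak centre (vertical ticks) along the 10 loci, in kb from the canonical start in the direction of transcription, with 1 row for each list and its number of peaks at the right. The grey bar is the gene record and the dotted line the canonical start, and each panel has its own scale. The FOXA1dbd row is nearly empty at ZEB1 (1 peak) and PRRX1 (1 peak), and the HNF4A row is empty at TCF21 and crowded at TWIST2 (22 peaks).

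Most peaks lay inside the genes. FOXA1 density was 12.57 per 100 kb in the gene records and 9 in the flanks, and HNF4A density was 3.631 and 1.9. Of the 8 genes with a record over 50 kb, FOXA1 was denser in the body than in the flanks at 6, as it was at 57.5% of coding genes with such a record, and HNF4A at 7, against 40.1%. By centre, 77.64% of the FOXA1 peaks at the loci (Wilson 95% interval 73.29% to 81.46%, counting error only) were in introns, against 64.63% of the whole list. HNF4A peaks were in introns in 64.81% (55.44% to 73.17%), against 39.37%. The loci were built around genes, so that high intron shares follow in part from their definition.

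Transcription starts separated the proteins. A FOXA1 centre lay within 1000 bp of the canonical start at 3 of the 10 genes, SNAI2, RUNX1 and RUNX2, where 7.24% of coding genes had one. For HNF4A the count was 6 genes, TWIST1, TWIST2, PRRX1, SNAI2, TEAD1 and ZEB1, with 9 peaks in all, where 42% of coding genes had one. FOXA1nhaa reached 2 canonical starts, those of RUNX1 and RUNX2 (background 4.34%), FOXA1dbd that of RUNX1 alone (1.66%), and FOXA1rraa none (2.59%). Counting every annotated start of the gene, HNF4A reached 9 of the 10 genes with 17 peaks, TCF21 being the exception, where 47.3% of coding genes had one, and FOXA1 reached 6 genes with 20 peaks, against 24.4%. The members were not matched to those genes in their number of starts.

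Every member has at least 2 annotated starts. PRRX1, with 8, had no FOXA1 peak near one, and the 20 such peaks were at 6 genes. ZEB2 had 7 of the 20, RUNX1 5, ZEB1 4, TEAD1 2, and SNAI2 and RUNX2 had 1 each. ZEB2 has 46 annotated start positions, so more of its locus counts as near a start. Its strongest such peak, with a score of 431, was also the highest-scoring FOXA1 peak of the locus and lay 122.7 kb downstream of the canonical start. At SNAI2 the FOXA1 peak at -0.449 kb from the canonical start was 38 bp wide, had a score of 81 and lay within an HNF4A peak of score 119. At RUNX2 the FOXA1 peak 0.235 kb downstream of the start had a score of 153 and was shared with FOXA1nhaa.

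Counted over starts of any gene, 7.035% of FOXA1 peaks at the loci were within 1000 bp of one (4.912% to 9.98%), against 8.87% of the list. The share for FOXA1dbd was 9.524% (background 9.27%), for FOXA1nhaa 6.95% (8.56%) and for FOXA1rraa 5.495% (8.65%). HNF4A had 21.3% (14.63% to 29.93%), below the 38.4% of its list. The HNF4A peaks near starts were GC-rich, with a median GC of 68.5% and 20 CpG dinucleotides in the central 200 bp (23 peaks), against 49% and 2 in the 85 farther away. The FOXA1 peaks had a median GC of 32.5% near starts (28 peaks) and 33% elsewhere (370 peaks). These medians were close to those of the whole lists, 64.5% and 49% for HNF4A and 33% and 32.5% for FOXA1.

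**Figure D3:**
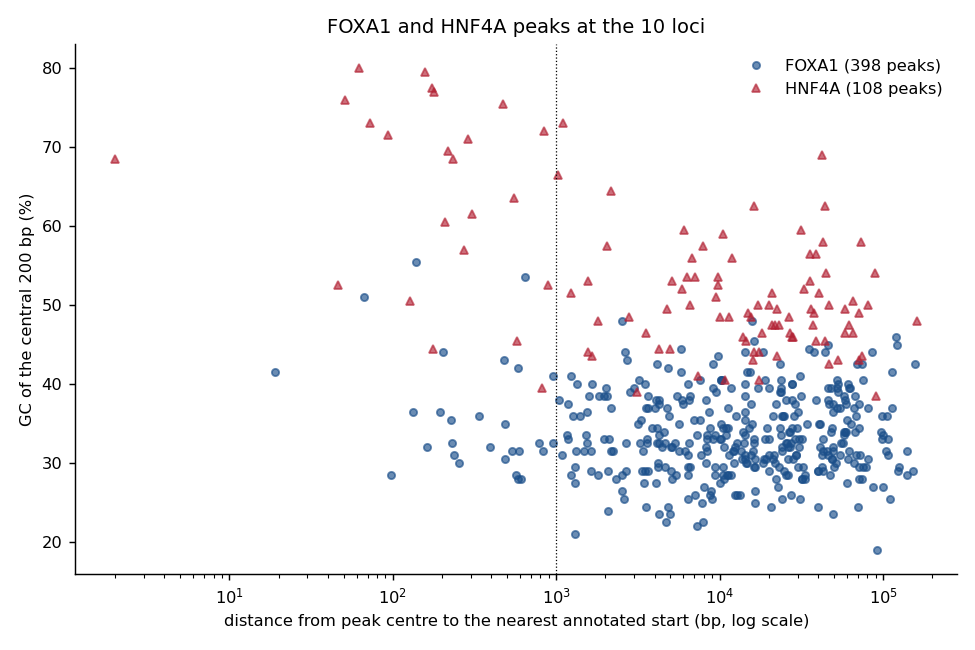
GC content of the central 200 bp (vertical axis, percent) against the distance from the peak centre to the nearest annotated start (horizontal axis, bp, log scale) for the 398 FOXA1 and 108 HNF4A peaks at the 10 loci. Each symbol is 1 peak and the dotted line marks 1000 bp. HNF4A peaks left of the line have a median GC of 68.5%, and FOXA1 peaks have a median near 33% on both sides.

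FOXA1 and HNF4A peaks mostly lay at different places in the same loci. Of the 108 HNF4A peaks, 12 overlapped a FOXA1 peak (11.11%, 6.471% to 18.42%), where 6.76% of the HNF4A list did. Seen from FOXA1, 12 of 398 peaks were shared (3.015%, 1.733% to 5.195%), against 1.68%. The shared peaks were at RUNX1 (7), TEAD1 (3) and SNAI2 (2). The other members had none. The median distance from an HNF4A centre to the nearest FOXA1 centre was 2692.5 bp at the loci and 6038.5 bp over the list, and FOXA1 density was also higher at the loci. Of the 12 shared FOXA1 peaks, 6 were overlapped by FOXA1dbd and 4 by no variant.

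The variants overlapped FOXA1 peaks at these genes about as often as elsewhere. FOXA1dbd overlapped 78 of the 398 FOXA1 peaks (19.6%, 16% to 23.78%), where 17.3% of the list was overlapped. FOXA1nhaa overlapped 167 (41.96%, 37.21% to 46.86%), against 39.7%. FOXA1rraa overlapped 169 (42.46%, 37.7% to 47.37%), against 39.9%. Every one of these intervals contained the share of the whole list. The FOXA1rraa list repeats rows of other lists: of its 182 rows at the loci, 61 were FOXA1 rows and 109 were FOXA1nhaa rows, and 12 carried a name prefix found in neither. These were 33.52%, 59.89% and 6.593% of its rows at the loci, against 32.61%, 57.94% and 9.456% over the whole list. Without the FOXA1 rows, FOXA1rraa overlapped 108 FOXA1 peaks (27.14%, 23% to 31.71%), against 25%. Without the FOXA1 and the FOXA1nhaa rows it overlapped 0 of the 398, so each of its overlaps with FOXA1 at the loci came from a row that stands in another list too. How the FOXA1dbd and FOXA1rraa lists were assembled is not given in the sources used here, and its part in these overlaps was not tested.

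In the other direction, 82 of 84 FOXA1dbd peaks overlapped a FOXA1 peak (97.62%, 91.73% to 99.34%), where 96.2% of the list did, and 82 lay wholly inside one. Of the FOXA1nhaa peaks 167 of 259 overlapped FOXA1 (64.48%, 58.48% to 70.06%), against 58.4%, a share whose interval lay just above that of the list. FOXA1rraa peaks overlapped FOXA1 in 166 of 182 cases (91.21%, 86.2% to 94.52%), against 86.8%. Without the FOXA1 rows, which overlap FOXA1 by being the same rows, 105 of 121 did (86.78%, 79.6% to 91.69%), against 80.42%. The remaining 92 FOXA1nhaa peaks had a median score of 77, against 104 for those on FOXA1 peaks (82 and 97 in the whole list). They were spread over 9 of the 10 genes, with 26 at RUNX1 and 13 at ZEB1 and none at TCF21.

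The genes differed in how much of their FOXA1 binding FOXA1dbd shared. At ZEB1 it overlapped 1 of 44 FOXA1 peaks (2.273%), at PRRX1 1 of 16 (6.25%) and at RUNX2 4 of 50 (8%). At ZEB2 it overlapped 11 of 45 (24.44%), at RUNX1 30 of 118 (25.42%), at TEAD1 13 of 59, and at TWIST2 5 of 11 (45.45%). The Wilson intervals of ZEB1 and ZEB2 did not overlap, but peaks of a locus share their source and are not replicates, so this contrast has counting error only and no test. The median FOXA1 score was 117.5 at ZEB1 and 147 at ZEB2, and RUNX2, at 117, was as low as ZEB1. The part of the score in these shares was not tested. FOXA1nhaa overlapped 13 of 44 FOXA1 peaks at ZEB1 and 24 of 45 at ZEB2, and 11 of 15 at SNAI2 and 5 of 7 at TCF21.

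**Figure D4:**
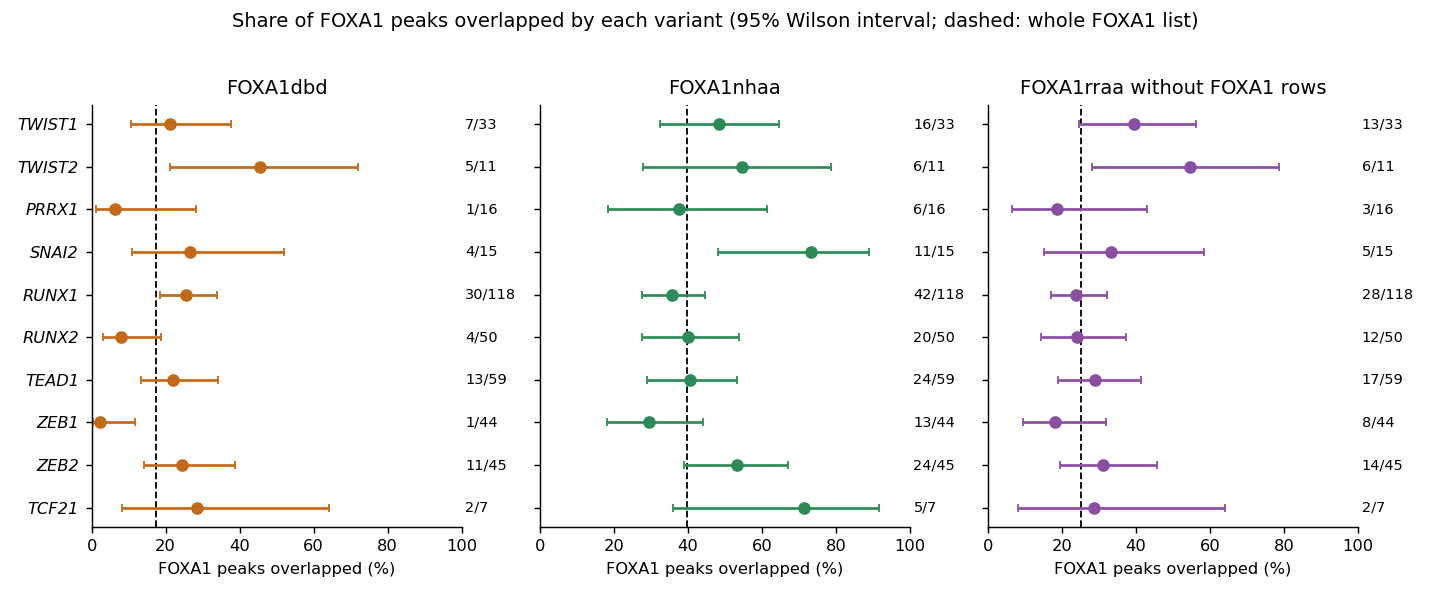
Share of FOXA1 peaks (horizontal axis, percent) overlapped by FOXA1dbd, by FOXA1nhaa and by FOXA1rraa without its FOXA1 rows at the 10 genes (rows), with the counts at the right of each panel. Points are shares, bars are 95% Wilson intervals (counting error only) and the dashed line is the share over the whole FOXA1 list, 17.3%, 39.7% and, for FOXA1rraa without FOXA1 rows, 25%. In the FOXA1dbd panel ZEB1 (1 of 44) lies below the line and TWIST2 (5 of 11) above it.

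Sorted by which variants they shared, 160 of the 398 FOXA1 peaks (40.2%) overlapped no variant, against 41.5% of the list, and 40 (10.05%) overlapped all 3, against 8.21%. The variant lists are not independent here: all 40 also overlapped a FOXA1rraa row that is no FOXA1 row, and 0 overlapped one that is no FOXA1nhaa row either, so 1 deposited row counted in both lists. The median score was 99 for the first class and 225.5 for the second (98 and 231 in the whole list). ZEB1 had no peak shared by all 3 variants among its 44, and 24 shared by none. RUNX2 had 2 and 25 among 50. TWIST1 had 5 of 33 in all variants, TWIST2 4 of 11 and RUNX1 13 of 118. In the highest-scoring 20% of FOXA1 peaks, FOXA1dbd overlapped 29 of 70 peaks (41.43%), against 31.81% of the same stratum of the whole list, and FOXA1nhaa 49 of 70 (70%, against 62.95%). Of these high-scoring peaks, ZEB1 had 6, of which FOXA1dbd overlapped 1, and ZEB2 had 10, of which it overlapped 5. Scores themselves were ordinary at these genes: the median FOXA1 score was 128, against 124, and a peak of the loci outscored a peak of the list with a probability of 0.5008 (0.4724 to 0.5292).

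Forkhead cores were not more frequent in the peaks at these genes than in the whole lists. A forkhead core was found in the central 200 bp of 61 of 398 FOXA1 peaks (15.33%, 12.12% to 19.2%), against 18.2% of the list, 7.29% of all 200-bp tiles of the genome and 6.95% of tiles of the loci outside every peak. The share was 19.05% for FOXA1dbd (list 22.1%), 10.81% for FOXA1nhaa (13.6%), 14.84% for FOXA1rraa (20%) and 1.852% for HNF4A (3.25%). All 5 shares were below that of their list, and the list's share lay within each of the 5 Wilson intervals. Over the whole width of the peaks the gap was wider for FOXA1, with 84 of 398 holding a core (21.11%, list 26.49%). For FOXA1rraa it was 44 of 182 (24.18%, list 32.79%). The whole-width share was 16.67% for FOXA1dbd (list 24.32%), 21.62% for FOXA1nhaa (24.18%) and 1.852% for HNF4A (5.487%). No interval was computed for these whole-width shares. By gene, 10 of 33 FOXA1 peaks held a core at TWIST1, 10 of 45 at ZEB2, 7 of 44 at ZEB1, 14 of 118 at RUNX1 and 6 of 59 at TEAD1. The reversed letters CATTTGT and CATTTAT, which have the same composition, were found in 20.85% of FOXA1 peaks at the loci, 19.76% of the list and 12.34% of genome tiles. FOXA1 peaks at the loci thus held the reversed letters in a higher share than the core, as did the whole list and the genome tiles. At the loci so did FOXA1nhaa (14.67% against 10.81%), FOXA1rraa (19.78% against 14.84%) and HNF4A peaks (8.333% against 1.852%). FOXA1dbd peaks did not, with 13.1% for the reversed letters and 19.05% for the core.

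Further motifs, chosen after the data were seen, were those of factors in the fibroblast and of the members themselves. The AP-1 motif TGAGTCA was found in 8.543% of FOXA1 peaks at the loci (list 7.99%, genome tiles 3.053%) and in 17.86% of FOXA1dbd peaks (list 18.56%). GGAATG, the site of TEAD proteins such as TEAD1, was found in 11.81% of FOXA1 peaks (list 11.9%, tiles 10.6%). TGTGGT, the site of RUNX proteins, was found in 12.81% (list 13.2%, tiles 13.5%). A match is a run of letters and not a bound site.

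Related genes were set beside the members by peak density. The median FOXA1 density was 12.8 per 100 kb over the 10 members and 14.66 over 20 fibroblast matrix and marker genes such as COL1A1 and FN1. It was 3.629 over 45 other mesenchymal and family factors, 5.609 over 14 epithelial genes, 2.799 over 11 AP-1 subunit genes and 2.177 over 18 liver factors, against 4.001 over coding loci. Of the 45 other mesenchymal factors, 21 lay above the coding median and 11 above the 75th percentile. The median locus GC was 39.58% for the members and the matrix genes, 44.08% for liver factors, 45.64% for epithelial genes, 46.62% for the other mesenchymal factors and 49.53% for AP-1 genes. The median locus GC over coding loci was 44.27%. These lists were not compared with loci of like GC, and the part of GC in their densities was not tested. HNF4A had its highest median at the AP-1 genes, 9.82 per 100 kb, against 2.79 at the members.

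Relatives of the members in the SNAI, PRRX, RUNX and TEAD families held fewer FOXA1 peaks per 100 kb than the median coding locus. SNAI1 held 1 peak (0.9442 per 100 kb), SNAI3 1 (0.9189), PRRX2 1 (0.6368) and RUNX3 none. TEAD2, TEAD3 and TEAD4 held 4, 2 and 5 (3.282, 1.62 and 2.757 per 100 kb). SNAI2 held 15 (14.4 per 100 kb), PRRX1 16 (9.055), RUNX2 50 (11.46) and TEAD1 59 (15.93). TEAD2 came nearest to the median, above 44.04% of coding loci. HNF4A density at these relatives ranged from above 24.6% of coding loci at TEAD2 to above 96.84% at PRRX2. These relatives lie in loci of 49.06% to 60.03% GC. MSC, a basic helix-loop-helix gene like TCF21, went the other way. It held 12 FOXA1 peaks (11.67 per 100 kb, above 84.42% of coding loci) in a locus of 39.5% GC, against 6.576 per 100 kb at TCF21. Partners of the members varied. TCF4 and TCF12, which pair with TWIST proteins, held 102 and 89 FOXA1 peaks (18.8 and 18.52 per 100 kb), while TCF3, another such partner, held none. YAP1 and WWTR1, the coactivators of TEAD1, held 42 and 41 (18.84 and 12.83 per 100 kb). The loci of the other partners named had a GC of 37.98% to 40.94%, in the range of the members, and that of TCF3 57.83%.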

How the data were processed

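ChIP-seq of HALO-tagged proteins in BJ fibroblasts was analysed from the authors' peak lists in hg19, with groups taken from the sample titles. Per the submitters' processing notes, the tools were Bowtie2 2.3.4.1, Picard, GATK 4.2.6.0, bedtools 2.27.1, MACS2 2.2.7.1 and deepTools 3.5.0. Whether libraries were pooled before peak calling is not given in the sources used here. The deposited FOXA1 list gives a score for each peak and no other value. The other deposited lists also give a fold enrichment (a ratio), a −log10 p-value and a −log10 q-value, and a summit offset in bp. All are the authors' values of single peaks and were used only within a list. They hold no read counts, so depth is unknown.

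Identical rows were counted as 1 peak. Loci were GENCODE v44lift37 gene records with 50 kb on either side, compared with the 20162 protein-coding loci built alike. Lists were called overlapping at 1 bp or more. Motif searches covered both strands of a 200-bp window, centred on a peak's summit if that fell within its row and on its midpoint if not. FOXA1 rows give no summit, so their midpoint was used. The 95% Wilson intervals of shares reflect counting error over peaks only. No test was made. Some FOXA1 rows are pieces of a peak: 36 of the 398 at the loci shared a name with another, giving 380 names, and 9 were narrower than 50 bp. Python 3.11.15 with pandas 2.3.3 and numpy 2.4.6, and samtools 1.23.1, were used, and counting, overlap and motif code was tested on simulated data.

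The genes were given, and the gene lists were chosen with earlier results of these data known. The sites named were, for each gene, the highest-scoring FOXA1 peak, peaks within 1000 bp of the gene's own starts, the highest-scoring FOXA1 peak shared by all 3 variants, and the HNF4A and variant peaks of highest −log10 q-value. The comparison with loci of like GC, the canonical transcript as gene body and the AP-1, TEAD and RUNX motifs were added after the data were seen. The down-sampled FOXA1 list served only as an alternative, and the H2B samples were not analysed here. 1 sequence window is not reported here.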

Additional observations from a re-analysis of the deposited data

How the results depend on the processing

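Of the values recomputed under other settings, 361 stayed within the interval or ratio set for them and 24 moved. All 86 alternatives for density stayed within 1.5 times the main value, with other flanks, merged peaks, the top 50% by score, the down-sampled list or any gene left out. Leaving out each gene in turn also kept every share within the interval of its main value. Overlap depended on how it was defined. With centres within 200 bp the share of FOXA1 peaks overlapped was 33.42% by FOXA1nhaa, 35.18% by FOXA1rraa and 1.256% by HNF4A, and the share overlapping FOXA1 was 83.33% of FOXA1dbd, 50.97% of FOXA1nhaa, 76.92% of FOXA1rraa and 4.63% of HNF4A peaks. With only the better-scoring 50% of peaks the share of FOXA1 peaks overlapped was 13.08% by FOXA1dbd, 31.31% by FOXA1nhaa and 0.9346% by HNF4A, and the share overlapping FOXA1 was 72.5%, 48.48%, 79.21% and 3.704% for the 4 lists in the same order. Without FOXA1 rows, FOXA1rraa overlapped 27.14% of FOXA1 peaks. In the central 100 bp, forkhead cores were in 8.04% of FOXA1, 9.524% of FOXA1dbd, 4.633% of FOXA1nhaa and 8.242% of FOXA1rraa peaks, a smaller window holding fewer letters. Reversed cores were in 20.85% of FOXA1 and 8.333% of HNF4A peaks. Within 2500 bp of a start lay 15.83% of FOXA1, 18.15% of FOXA1nhaa and 14.29% of FOXA1rraa peaks. Why these values moved was not tested.

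No paired analysis was possible because each protein has 1 peak list. Some peak names begin with numbered prefixes (at the loci IP1 on 71 FOXA1dbd rows and IP3 on 12), but the labels tie none of them to a library. Without read counts, an absent peak cannot be told from a peak below the caller's threshold.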
